A study of Saccharomyces cerevisiae with 6 samples.

Results

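The genes described here encode proteins of the mitochondrial ribosome of Saccharomyces cerevisiae. They were chosen by name, as the genes whose symbol is MRPL, MRPS, RSM or MRP followed by a number. MRP8 was left out. Of the 5449 yeast genes measured, 65 met this rule, 37 of the large subunit and 28 of the small subunit. The large subunit group held the MRPL genes with MRP7, MRP20 and MRP49, and the small subunit group held the MRPS and RSM genes with the other MRP genes. Each of the 65 genes had 1 probe set, the group of short probes on the array that reports 1 transcript, so no choice between probe sets was needed.

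Mitochondria make a few proteins themselves, mostly core subunits of the respiratory chain and the ATP synthase, on ribosomes of their own. Nearly all proteins of these ribosomes are encoded in the nucleus, made in the cytosol and imported, and the large and small subunits are then assembled around ribosomal RNA encoded in mitochondria. The ribosome descends from that of bacteria, so many of its proteins have a bacterial homolog, while others are found in mitochondria only. In yeast the genes are known to be needed for growth on carbon sources that must be respired, and many of their messenger RNAs are known to be bound by the RNA-binding protein Puf3.

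Messenger RNA was measured in the laboratory reference strain CEN.PK113-7D, grown in chemostats on minimal medium with 10 g/L glucose as the carbon source. Every chemostat ran at the critical dilution rate, above which cells begin to overflow carbon to ethanol. The labels give no value of that rate, so whether the strains grew equally fast cannot be told from them. The control carried the plasmid pYX212 with no insert, the NOX strain pYX212-NOX and the AOX strain pYX212-AOX. NOX is known as an NADH oxidase of the cytosol that forms water, and AOX as the alternative oxidase, which accepts electrons from the mitochondrial respiratory chain. In pYX212 an inserted gene is driven by the TPI1 promoter, and all 3 strains therefore carried a plasmid. Each strain was represented by 2 Affymetrix Yeast Genome 2.0 arrays, 6 in all. Whether the 2 arrays of a strain stem from 2 cultures or from 1 is not stated, and the p-values reflect array-to-array spread that may be technical. Precision is limited by this small number of arrays. Levels are relative to the other transcripts on an array, so a change in total messenger RNA per cell cannot be seen.

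All 65 genes were well above background on all 6 arrays. The lowest deposited intensity of any of them was 582, on NOX replicate 2, against a 95th percentile of 27.1 to 43.5 for probe sets of another organism carried on the same arrays. NOX replicate 1 stood apart from the other arrays: the mean log2 level of its hybridisation controls was 10.99, compared with 9.45 to 9.86 elsewhere, and that of its ribosomal RNA probe sets was 4.93, compared with 5.77 to 7.09. The signal at the 3′ end exceeded that at the 5′ end of 6 control transcripts by a log2 difference of 0.61 to 0.73 on all 6 arrays. These values moved with an array that enters the comparisons of NOX, and their part in the results was not tested. For some named genes and lists whose NOX values moved, the value without that array is given too.

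The question was how much of the mitochondrial translation machinery differed at the transcript level in strains whose plasmid carried NOX or AOX. The differences were small throughout. None of the 65 genes was called higher or lower in NOX or in AOX against control, where 3.71% and 3.58% of all probe sets were called. MRPL28 alone was called between the oxidase strains, lower in AOX than in NOX, against 8.38% of all probe sets called in either direction. With 2 arrays per strain, small changes may have gone uncalled. Levels are given below as log2(intensity + 16) after quantile normalization, which gives all arrays the same distribution, and a difference of 1 on this scale is a 2-fold difference. The tests are limma's, fitted to all 5498 yeast probe sets over the 6 arrays, and a gene was called at a Benjamini-Hochberg adjusted p below 0.05.

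**Figure D1:**
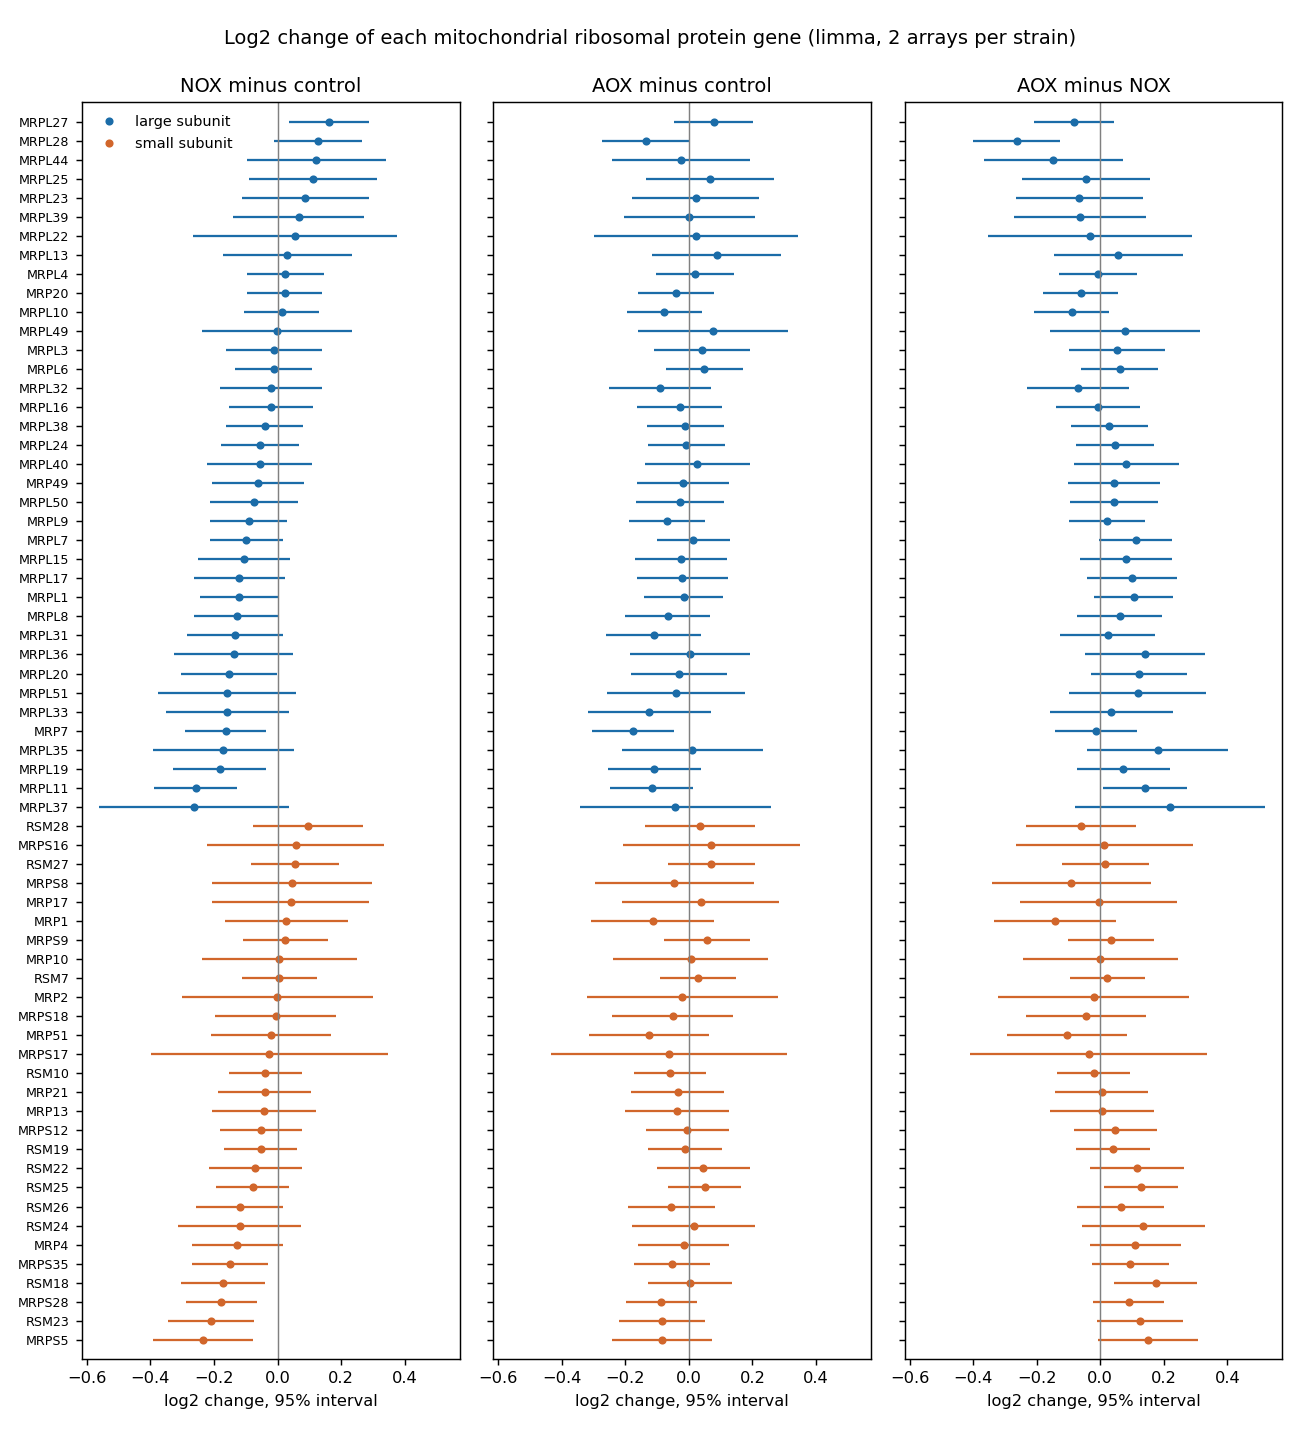
Log2 change of each of the 65 genes in the 3 comparisons, with limma's 95% interval (horizontal lines), large subunit in blue and small subunit in orange. All intervals lie within a 1.5-fold change in either direction, and the widest reaches 0.56 (MRPL37, NOX minus control).

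In NOX against control, 0 of the 65 genes were called, while 3.71% of all probe sets were, 2.8% higher and 0.909% lower. At an unadjusted p below 0.05 there were 10 genes (15.4%), 9 lower and 1 higher, against 22.3% of all probe sets, of which 9.93% were lower and 12.3% higher. The median log2 change over the 65 genes was -0.04, against -0.00 over all probe sets, and 45 of the 65 (69.2%) were below 0, against 51.2% of all. The median was -0.08 both on the deposited scale, with 55 genes below 0, and with median scaling on yeast probe sets, with 54 below 0. Both NOX arrays lay below both control arrays for 30 genes (46.2%), against 28.4% of all probe sets, and above both for 7 (10.8%), against 27%. The changes ran from -0.26 to 0.16, so the largest was 1.20-fold. The 95% interval stayed within a 1.5-fold change for 65 of 65 genes, against 92.2% of all probe sets, and within 1.19-fold for a gene at the median. Changes within these intervals may have gone uncalled with 2 arrays per strain.

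On the deposited scale the median intensity of the 65 genes was 1694 and 1709 on the NOX arrays, against 1849 and 1845 in control. Over all yeast probe sets it was 511 and 543, against 526 and 531. After quantile normalization, the number of genes below control differed between the 2 NOX arrays. On NOX replicate 2, 55 of the 65 genes were below their control mean and the median deviation was -0.09. On NOX replicate 1 there were 34 below and the median was -0.00. The quartiles there were -0.16 and 0.09, and single genes lay as far as 0.43 below and 0.26 above. Without NOX replicate 1 the median change was -0.09 and 0 genes were called, against 4.8% of all probe sets. Without NOX replicate 2, the array left being the one that stood apart, 15 genes were called (23.1%), 11 lower and 4 higher, against 26.4% of all probe sets, of which 13% were lower and 13.4% higher. Without control replicate 1 or 2 there were 0 (0.309% and 0.255% of all), and without AOX replicate 1 or 2 also 0 (2.02% of all in each case). Those 15 include 11 of the large and 4 of the small subunit. The single NOX array is then assumed to vary like the other strains' arrays, which differed less from each other.

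**Figure D2:**
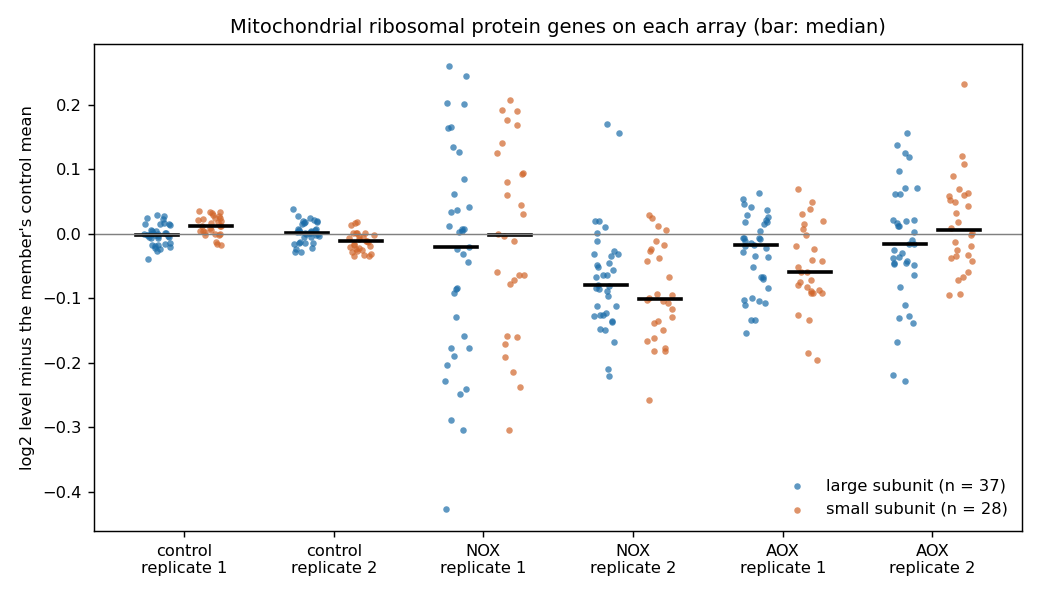
Log2 level of each gene on each array minus the mean of the gene on the 2 control arrays, with large and small subunit side by side and a bar at each median. The control arrays lie within 0.04 of their mean, which they alone define, so they mirror each other and their spread looks smaller. NOX replicate 1 is the most spread out, and NOX replicate 2 has its medians at -0.08 (large) and -0.10 (small).

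Among the proteins of the large subunit, MRPL11, the homolog of L10 at the base of the ribosomal stalk, came closest to a call in NOX. Its log2 level was 10.98 and 10.99 on the control arrays, 10.68 and 10.78 on the NOX arrays and 10.88 and 10.86 on the AOX arrays. Both oxidase strains lay below control on all arrays, with NOX lowest. The change in NOX was -0.26 (SE 0.05, 95% interval -0.39 to -0.13, limma adjusted p = 0.0654), and that in AOX was -0.12 (SE 0.05, adjusted p = 0.419). With a pseudocount of 64 the NOX value was -0.25 and passed (adjusted p = 0.0499). It passed under no other setting that kept 2 arrays per strain. On the deposited scale the smallest limma adjusted p of any mitochondrial ribosome gene was 0.104, and with only NOX and control fitted 0.138. The NOX value of MRPL11 was -0.21 without NOX replicate 1. It was -0.30 without NOX replicate 2, where the only NOX array left was the one that stood apart.

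MRPL37, a protein of mitochondrial ribosomes with no bacterial homolog, had the largest NOX value. It read 11.15 and 11.18 in control, 10.74 and 11.07 in NOX and 11.22 and 11.03 in AOX. The first NOX array was far below the second, and the groups of NOX and control did not overlap. The change of -0.26 (SE 0.12, adjusted p = 0.272) shrank to -0.10 without NOX replicate 1 and was -0.43 without NOX replicate 2 (adjusted p = 0.032).

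MRP7, the homolog of bacterial L27, which reaches towards the site of peptide bond formation, was low in both oxidase strains. Its levels were 10.47 and 10.48 in control, 10.30 and 10.33 in NOX and 10.34 and 10.26 in AOX, with no overlap between control and either strain. The change was -0.16 in NOX (SE 0.05, adjusted p = 0.152) and -0.18 in AOX (SE 0.05, adjusted p = 0.202), the largest AOX value of the 65 genes. MRPL19, the homolog of L11, differed by -0.18 in NOX (SE 0.06, adjusted p = 0.158) and by -0.11 in AOX. MRPL33, the homolog of L30, stood at -0.16 and -0.12, and MRPL35, specific to mitochondria, at -0.17 and 0.01. The NOX value of MRPL35 was -0.05 without NOX replicate 1. None of these passed the test.

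The highest values in NOX were also those of large subunit genes. MRPL27, which has no bacterial homolog, read 11.05 and 11.06 in control, 11.22 and 11.21 in NOX and 11.09 and 11.17 in AOX, higher on all 4 oxidase arrays than in control. Its change was 0.16 in NOX (SE 0.05, 95% interval 0.04 to 0.29, adjusted p = 0.151) and 0.08 in AOX (adjusted p = 0.602). The next were MRPL28 (0.13, adjusted p = 0.255), MRPL44 (0.12), MRPL25 (0.11), the small subunit gene RSM28 (0.10), MRPL23, the homolog of L13 (0.09), MRPL39, the homolog of L33 (0.07), and MRPS16, the homolog of S16 (0.06), none past the threshold. Without NOX replicate 1, MRPL27 stood at 0.16 and MRPL28 at 0.17, but MRPL44 at 0.00, MRPL25 at 0.02 and RSM28 at 0.02. MRPL23 (-0.03), MRPL39 (-0.03) and MRPS16 (-0.01) were then below control.

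MRP20, the homolog of L23 at the exit of the nascent chain tunnel, read 10.69 and 10.63 in control, 10.69 and 10.67 in NOX and 10.62 and 10.61 in AOX, a change of 0.02 in NOX and -0.04 in AOX (SE 0.05 each). MRPL4, the homolog of L29, differed by 0.02 in NOX and 0.02 in AOX (SE 0.05 each). MRPL22, the homolog of L22, had a change of 0.06 in NOX with an SE of 0.13, since its 2 NOX arrays read 10.78 and 10.37, on either side of the control values of 10.52 on both arrays. It was -0.15 without NOX replicate 1. MRPL32, the homolog of L32, known to be cut by the m-AAA protease before it enters the ribosome, differed by -0.02 in NOX and -0.09 in AOX (SE 0.06 each). MRP49 differed by -0.06 and -0.02 (SE 0.06 each).

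In the small subunit, 4 genes had NOX values of -0.17 or lower. MRPS5, the homolog of S5, which lies near the entry of the messenger RNA, read 10.35 and 10.30 in control, 10.02 and 10.16 in NOX and 10.25 and 10.23 in AOX. Both NOX arrays were lowest, the AOX arrays lay between, and control and NOX did not overlap. The change was -0.23 in NOX (SE 0.06, 95% interval -0.39 to -0.08, adjusted p = 0.117) and -0.08 in AOX (adjusted p = 0.658). RSM23, whose human homolog is the GTP-binding protein DAP3, read 10.61 and 10.65 in control, 10.39 and 10.45 in NOX and 10.50 and 10.59 in AOX. It differed by -0.21 in NOX (SE 0.05, adjusted p = 0.107) and by -0.08 in AOX.

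For MRPS28, the homolog of S15, levels were 10.50 and 10.48 in control, 10.32 and 10.31 in NOX and 10.41 and 10.39 in AOX, so that the 3 strains did not overlap. The change was -0.18 in NOX (SE 0.05, adjusted p = 0.103) and -0.09 in AOX (SE 0.05, adjusted p = 0.494). RSM18, the homolog of S18, read 11.35 and 11.34 in control, 11.15 and 11.19 in NOX and 11.30 and 11.39 in AOX. Its 2 NOX arrays were the lowest, at -0.17 against control (SE 0.05, adjusted p = 0.148), with 0.00 in AOX.

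**Figure D3:**
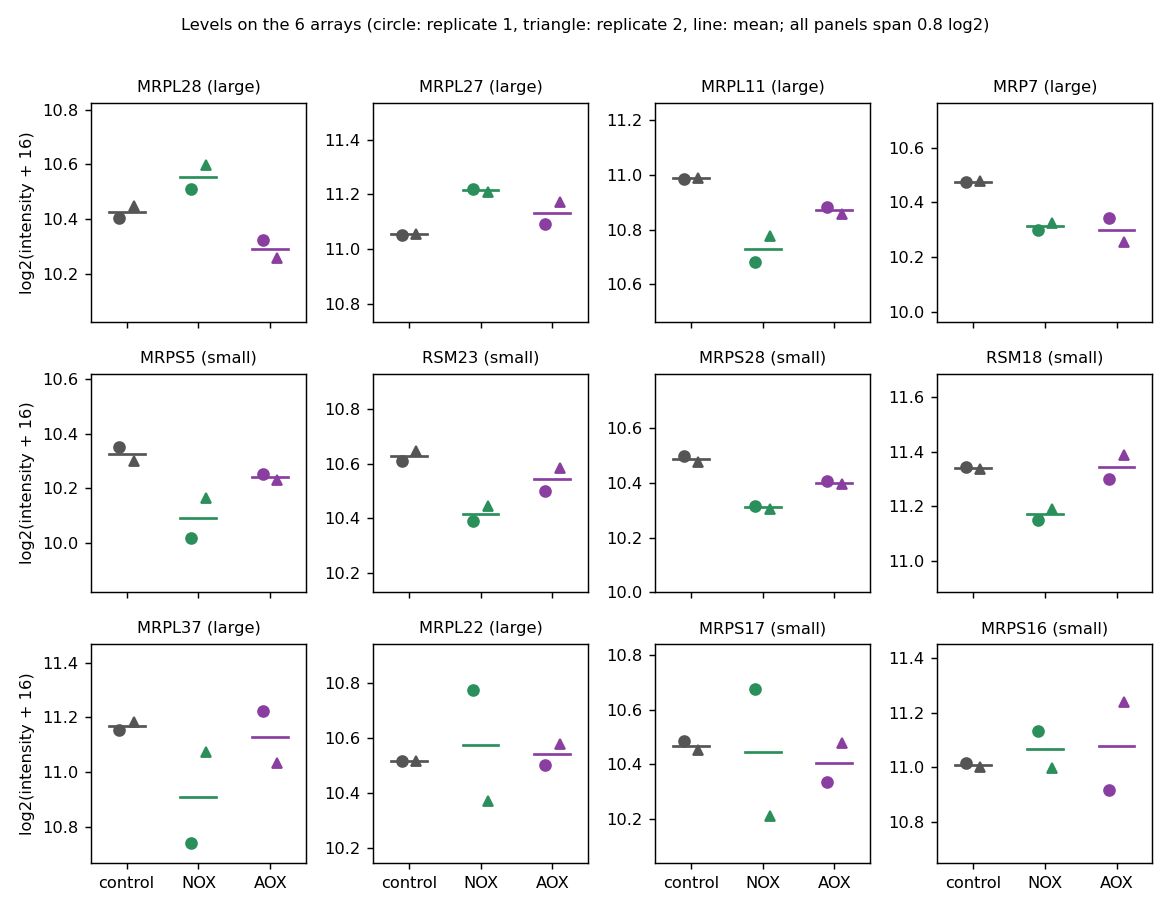
Levels of 12 genes on the 6 arrays as log2(intensity + 16), with replicate 1 as circles, replicate 2 as triangles and the strain mean as a line. Each panel spans 0.8 on the log2 scale around the mean of the gene, which shows MRPL28 apart in NOX and AOX, and the arrays of NOX far apart for MRPL22, MRPS17 and MRPL37.

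MRP1 and RSM26 are small subunit proteins related in sequence to the manganese and iron superoxide dismutases. Neither passed the test in NOX, where their changes over both arrays had opposite signs. With NOX replicate 1 left out both lay below control, MRP1 at -0.04 and RSM26 at -0.17. MRP1 read 11.19 and 11.13 in control, 11.25 and 11.12 in NOX and 10.96 and 11.13 in AOX, a change of 0.03 in NOX and -0.11 in AOX (SE 0.08 each). RSM26 read 10.95 and 10.91 in control, 10.86 and 10.77 in NOX and 10.86 and 10.90 in AOX, a change of -0.12 in NOX and -0.05 in AOX (SE 0.06 each). MRP51, known to act on the leaders of messenger RNAs in translation initiation, differed by -0.02 in NOX and -0.13 in AOX (SE 0.08 each). MRP10, which is oxidised on import by the Mia40 pathway, differed by 0.01 and 0.01 (SE 0.10 each). Its NOX value was -0.13 without NOX replicate 1, and that of MRP51 was -0.10. MRPS12, the homolog of the decoding protein S12, differed by -0.05 and -0.00 (SE 0.05 each), and MRP4, the homolog of S2, by -0.13 and -0.02 (SE 0.06 each). MRP4, MRPL19 and MRPL51 overlap another gene in the R64 gene table (YHL005C, YNL184C and YPR099C), so their values are uncertain. MRPS12 and RSM19 were the only pair of the 65 that are direct neighbours among protein-coding genes in that table.

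AOX differed from control by less. Again 0 of the 65 genes were called, against 3.58% of all probe sets, 2.55% higher and 1.04% lower, and at an unadjusted p below 0.05 there was 1 (1.54%), MRP7, which was lower, against 13.7% of all, 5.33% lower and 8.37% higher. The median change was -0.02, against -0.00 over all probe sets, with values from -0.18 to 0.09. Below 0 were 40 genes (61.5%), against 51.1% of all. With median scaling on other-organism probe sets the median was -0.00 and 33 genes were below 0. Both AOX arrays lay below both control arrays for 23 genes (35.4%), against 29.4% of all probe sets, and above for 10 (15.4%), against 28.7%. The size of change at the median, regardless of direction, was 0.04 for the 65 genes and 0.07 for all probe sets, and in NOX 0.07 and 0.09. All 65 intervals lay within a 1.5-fold change, against 94% of all probe sets, and the widest reached 1.35-fold, for MRPS17. That interval includes the spread of its NOX arrays (SD 0.33), which was larger than in control (0.03) or AOX (0.10). After MRP7 the lowest values were those of MRPL28 (-0.14, adjusted p = 0.369), MRP51 (-0.13, adjusted p = 0.567), MRPL33 (-0.12), MRPL11 (-0.12), MRP1 (-0.11), MRPL31 (-0.11) and MRPL19 (-0.11). The highest were those of MRPL13 (0.09, adjusted p = 0.732), MRPL27 (0.08), MRPL49, the homolog of L21 (0.08), RSM27 (0.07), MRPS16 (0.07), MRPL25 (0.07), MRPS9, the homolog of S9 (0.06), and RSM25 (0.05). The count of called genes stayed at 0 when each array was left out in turn. Over all probe sets the share called was then 1.13% and 0.946% without control replicates 1 and 2, 6.62% without either NOX array, and 1.62% and 1.42% without AOX replicates 1 and 2.

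The direct comparison of the oxidase strains gave the single call. MRPL28, a large subunit protein without a bacterial homolog, read 10.41 and 10.45 in control, 10.51 and 10.60 in NOX and 10.32 and 10.26 in AOX. The NOX arrays lay above control and the AOX arrays below it, with no overlap among the 3 strains. The difference of AOX from NOX was -0.26 (SE 0.06, 95% interval -0.40 to -0.13, limma adjusted p = 0.0463), a 1.20-fold lower level in AOX. It was called under 6 of 16 alternative settings, with values from -0.31 to -0.22 and adjusted p from 0.0313 to 0.225. Leaving out either control array (adjusted p = 0.177), AOX replicate 1 (0.148) or AOX replicate 2 (0.225) ended the call, and so did the deposited scale (0.121).

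Of the 65 genes 1.54% were thus called between AOX and NOX, against 8.38% of all probe sets, of which 4.38% were lower and 4% higher. At an unadjusted p below 0.05 there were 4 (6.15%), 3 higher and 1 lower, against 22.8% of all, 11.5% higher and 11.2% lower. The median difference was 0.03, against 0.01 over all probe sets, and 23 genes (35.4%) were below 0, against 47.3% of all. All 65 intervals lay within 1.5-fold, against 92% of all probe sets. Both AOX arrays were above both NOX arrays for 19 genes (29.2%), against 24.7% of all probe sets, and below for 4 (6.15%), against 21.5%. Those 4 were MRPL28, MRPL10 (-0.09), MRPL27 (-0.08) and MRP20 (-0.06), all of the large subunit.

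The highest AOX values relative to NOX were those of MRPL37 (0.22, SE 0.12), MRPL35 (0.18, SE 0.09), RSM18 (0.17, SE 0.05, adjusted p = 0.126), MRPS5 (0.15), MRPL11 (0.14), MRPL36, the homolog of L31 (0.14), RSM24 (0.13) and RSM25 (0.13). After MRPL28 the lowest were MRPL44 (-0.15), MRP1 (-0.14), MRP51 (-0.10), MRPS8, the homolog of S8 (-0.09), MRPL10, the homolog of L15 (-0.09), MRPL27 (-0.08) and MRPL32 (-0.07). Without NOX replicate 1 these values shrank to 0.05 for MRPL37, 0.06 for MRPL35, 0.08 for MRPS5, 0.09 for MRPL11, 0.04 for MRPL36 and 0.04 for RSM24, while RSM18 stood at 0.15 and RSM25 at 0.14. Among the lowest, MRPL44 was then at -0.03, MRP1 at -0.08, MRP51 at -0.02 and MRPL32 at -0.01, and MRPS8 turned to 0.05. Without NOX replicate 2, 11 genes were called (16.9%), 6 higher and 5 lower, against 26.7% of all probe sets, 13.4% higher and 13.3% lower. MRPL28, MRPL37, MRPL11 and MRPL22 were among them. Without NOX replicate 1 there was 1 (10.2% of all), again MRPL28. Without either control array (3.67% of all), AOX replicate 1 (2.87%) or AOX replicate 2 (3.11%) there were 0.

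The large and the small subunit had close medians in each comparison. In NOX against control the median change was -0.06 over the 37 large subunit genes and -0.04 over the 28 small subunit genes, with 70.3% and 67.9% of them below 0. In AOX against control both medians were -0.02, and between AOX and NOX they were 0.04 and 0.02. The difference between the medians, large minus small, was -0.02, -0.00 and 0.02 in the 3 comparisons, while the same difference varied between arrays of 1 strain with an SD of 0.03. Its sign depended on single arrays. It ran from -0.04 to 0.02 in NOX, from -0.02 to 0.04 in AOX and from -0.03 to 0.05 between AOX and NOX when arrays were left out in turn.

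By array, the small subunit was the lower in NOX replicate 2 (-0.10 against -0.08) and AOX replicate 1 (-0.06 against -0.02), and the higher in NOX replicate 1 (-0.00 against -0.02) and AOX replicate 2 (0.01 against -0.02). The 2 arrays of each oxidase strain therefore ordered the subunits in opposite ways. On the control arrays 7 of 28 small subunit genes were below their mean on replicate 1 and 21 on replicate 2, with medians of 0.01 and -0.01. The control arrays mirror each other by construction, since the reference is their own mean.

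Splitting the genes by ancestry gave a similar picture. The 40 genes with a bacterial homolog had a median of -0.04 in NOX and -0.02 in AOX, and the 25 genes specific to mitochondria -0.07 and -0.02. In NOX the size of change at the median, regardless of direction, was 0.12 for the mitochondria-specific genes and 0.05 for the others. In AOX it was 0.04 for each. These sizes were not computed without NOX replicate 1, and genes of both classes moved without it. Among the mitochondria-specific genes MRPL37 went from -0.26 to -0.10 in NOX, but MRPL20 from -0.15 to -0.22. Among the others MRPL36 went from -0.14 to -0.04, but MRPL22 from 0.06 to -0.15. The gap between the classes in NOX is therefore uncertain. No difference between these classes was tested.

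The arrays of a strain agreed to very different degrees. Between the control arrays the difference regardless of direction was 0.03 at the median over the 65 genes and 0.03 over all probe sets, and none of the 65 differed by over 0.2. Between the NOX arrays these values were 0.10 and 0.12, and 12 genes (18.5%) differed by over 0.2, against 29% of all probe sets. Between the AOX arrays they were 0.08 and 0.07, with 2 genes (3.08%) over 0.2, against 9.77% of all.

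**Figure D4:**
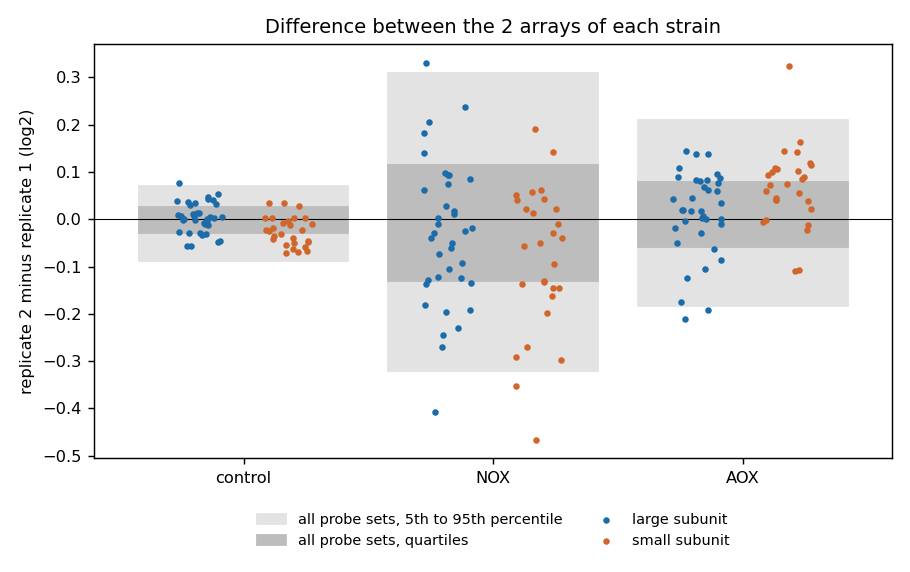
Log2 difference between replicate 2 and replicate 1 for each of the 65 genes in each strain, over grey boxes for the quartiles and the 5th to 95th percentiles of all probe sets. The control arrays differ by at most 0.08, and the genes farthest from 0 in the other strains are MRPS17 in NOX (-0.47) and MRPS16 in AOX (0.32).

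The largest difference between NOX arrays was that of MRPS17, the homolog of S17, which read 10.68 and 10.21, with control at 10.49 and 10.45 and AOX at 10.34 and 10.48. MRPL22 followed at -0.41 and MRP2, the homolog of S14, at -0.35 (11.65 and 11.30). In AOX the largest was that of MRPS16, at 10.92 and 11.24, a difference of 0.32, followed by MRPL33 at -0.21 (11.20 and 10.99) and MRPL37 at -0.19. In control the largest were those of MRPL40, the homolog of L24 (0.08), MRP13 (-0.07) and MRP51 (-0.07). For MRPS17, MRPL22 and MRP2 the NOX arrays lay on both sides of control, so their changes of -0.03, 0.06 and -0.00 had an SE of 0.15, 0.13 and 0.12. These changes were -0.26, -0.15 and -0.18 without NOX replicate 1.

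Other parts of the mitochondrial translation system were compared with the same fit. Of 12 mitochondrial ribosomal proteins under other names, such as IMG1 and MNP1, none was called in any comparison. Their medians were -0.00 in NOX (-0.08 without NOX replicate 1) and -0.03 in AOX. EHD3 was not above background on any of the 6 arrays. The extremes in NOX were MHR1 (-0.20) and PET123 (0.21), whose NOX arrays read 11.01 and 10.39 with control at 10.49 and 10.48. These were -0.08 and -0.10 without NOX replicate 1, the latter with its sign turned. The extremes in AOX were NAM9, the homolog of S4 (-0.10), and RTC6 (0.07). None of the 10 translation factors was called either. MEF1, the elongation factor that moves the ribosome along the messenger RNA, read 11.45 and 11.47 in control, 11.20 and 11.20 in NOX and 11.31 and 11.37 in AOX. Its NOX change of -0.26 (SE 0.05, adjusted p = 0.0513) lay just outside the threshold and passed under 6 of 16 alternative settings (adjusted p 0.023 to 0.513). TUF1, the factor that delivers transfer RNAs, differed by -0.11 in NOX and 0.05 in AOX (SE 0.05 each). PTH1 had the lowest AOX value (-0.18). FMT1, which formylates the initiator methionine and ranked highest in both strains, was not above background on the 2 control arrays, so no size is given for it.

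The 13 mitochondrial aminoacyl-tRNA synthetases charge transfer RNAs with amino acids. Of these, 1 was called lower in AOX and none higher, against 1.04% and 2.55% of all probe sets. It was MSK1, the lysine enzyme, at 9.98 and 9.96 in control, 9.79 and 9.72 in NOX and 9.63 and 9.61 in AOX. All 4 oxidase arrays lay below control, AOX lowest. The change was -0.35 in AOX (SE 0.05, adjusted p = 0.0215) and -0.21 in NOX (SE 0.05, adjusted p = 0.0874). Without control replicate 1 or 2 the AOX value had an adjusted p of 0.315 or 0.283, and without AOX replicate 1 or 2 of 0.123 or 0.177. With the replicate number as a block it was 0.077. MSK1 was also called in NOX without NOX replicate 1 (-0.25, adjusted p = 0.0486). The list had a median of -0.14 in NOX, with MSW1, the tryptophan enzyme, lowest at -0.28 (adjusted p = 0.144, and -0.16 without NOX replicate 1), and of -0.07 in AOX, in both cases without other calls. The highest were DIA4 in NOX (0.08, and -0.03 without NOX replicate 1) and MSY1 in AOX (0.00).

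No gene passed among the 10 genes of ribosome assembly and RNA modification (medians -0.08 in NOX and -0.04 in AOX), where MTG2, a GTPase of large subunit assembly, differed by -0.21 in NOX (adjusted p = 0.0773) and -0.18 in AOX. The highest values there were those of MRM2 in NOX (0.13) and MRM1 in AOX (0.00), which methylate ribosomal RNA. The same held for the 17 translational activators (medians -0.06, or -0.13 without NOX replicate 1, and -0.04), in which CBP3 had the lowest NOX value (-0.22) and AEP2 the lowest AOX value (-0.21), with ATP22 highest in NOX (0.11) and CBP1 in AOX (0.14). It also held for the 6 genes of mitochondrial transcription and RNA turnover (medians 0.06, or -0.04 without NOX replicate 1, and -0.04), with SUV3, a helicase of RNA turnover, lowest in NOX (-0.12) and AOX (-0.11). PUF3 read 6.51 and 6.46 in control, 6.52 and 6.84 in NOX and 6.43 and 6.52 in AOX. The second NOX array was the highest of the 6, and the change of 0.19 had an SE of 0.11 (adjusted p = 0.344). Without NOX replicate 1 it was 0.35 (adjusted p = 0.0475), with 1 NOX array that is assumed to vary like the others, and its difference of AOX from NOX was then -0.37 (adjusted p = 0.0285).

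**Figure D5:**
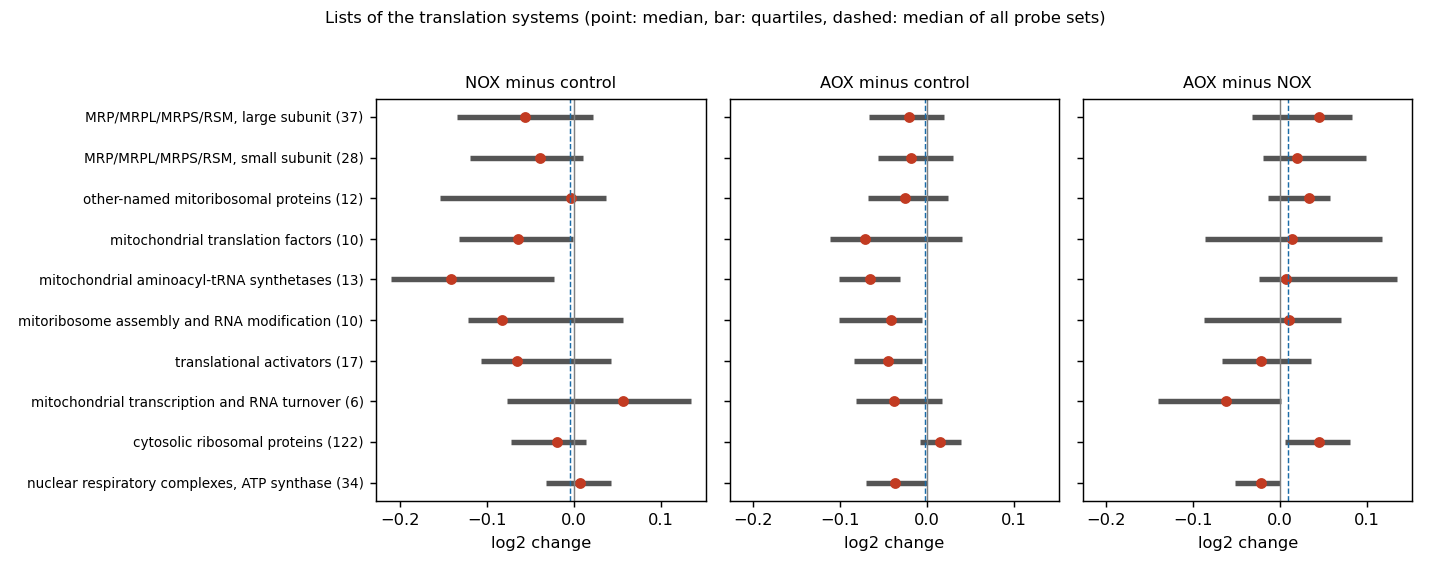
Median (point) and quartiles (bar) of the log2 change for each list in the 3 comparisons, with the number of genes in brackets and the median of all probe sets dashed. The synthetases have the lowest median in NOX (-0.14), and the medians of both subunits stay between -0.06 and 0.04.

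For comparison, the 122 genes of cytosolic ribosomal proteins had medians of -0.02 in NOX, 0.02 in AOX and 0.04 between AOX and NOX. The 34 nuclear genes of the respiratory complexes and the ATP synthase had medians of 0.01, -0.04 and -0.02. Only RPS9A, a protein of the small cytosolic subunit, was called in these lists, at -0.30 in NOX (SE 0.05, adjusted p = 0.0388), where 0.909% of all probe sets were called lower. Its level is uncertain because of its near-identical paralog RPS9B, and the call held under 7 of 16 alternative settings. It was lost without control replicate 1 (adjusted p = 0.406) or 2 (0.402), NOX replicate 1 (0.0562) or either AOX array (0.0884). Among the respiratory genes ATP19, a small subunit of the ATP synthase, was lowest in NOX (-0.27, adjusted p = 0.107) and AOX (-0.18), and ATP4, of its stator, highest (0.14, or 0.02 without NOX replicate 1, and 0.09). With NOX replicate 1 left out, QCR8 of the respiratory list was called in NOX (-0.43, adjusted p = 0.0338) and RPS27A of the cytosolic ribosome between AOX and NOX (0.21, adjusted p = 0.0483). The lists and the 65 genes overlap in range, and no difference between lists was tested.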

How the data were processed

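RNA was measured on Affymetrix Yeast Genome 2.0 arrays. The deposited values are intensities on a linear scale, 1 per probe set and array; how the authors summarised and scaled them is not stated in the labels or headers. Of 10928 probe sets, 5498 were matched to 1 gene of the R64 table and tested, and 1746 of another organism gave the background. Intensities were transformed as log2(value + 16), which understates changes of dim genes, and quantile normalized over all probe sets, since array medians differed by up to 0.204.

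The fit used limma 3.58.1 (R 4.3.3; lmFit and eBayes, a mean per strain over 6 arrays, 3 residual and 2.77 prior degrees of freedom) with Benjamini-Hochberg adjustment over the 5498 probe sets; SE is limma's, with 2 arrays in each strain. The fit was also tested on simulated data, in which NOX levels were raised by known log2 sizes for 50 probe sets each. Of changes of 0.25, 22% were called, and of changes of 0.5, 72%. The simulated arrays of a probe set all had the same spread. In the data the NOX arrays differed by 0.12 at the median over all probe sets and the control arrays by 0.03. These shares may therefore not hold for NOX against control.

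The members and lists were chosen with earlier results of these data known, and no list was tested as a set. MRX15, MTG3 and NAM1 of the lists were not matched. Members were named where called, among the 8 largest rises or falls of a comparison or the 3 largest differences between arrays of a strain, or in a fixed set of 12 with a known role; in other lists, the called genes, the extremes and MEF1, TUF1 and PUF3 were named. Alternatives covered scaling, dim probe sets, pseudocounts of 1 and 64, the variance model, the arrays fitted, the replicate number as a block and each array left out.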

Additional observations from a re-analysis of the deposited data

Results flagged for a closer look

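MRPL28 differed between the 2 oxidase strains under the same contrast with control: the NOX arrays were above and the AOX arrays below both control arrays, and the test of the difference itself gave a log2 difference of -0.26 for AOX minus NOX (limma adjusted p = 0.0463). Its changes against control, 0.13 in NOX and -0.14 in AOX, did not pass on their own.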

How the results depend on the processing

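With 2 arrays per strain, the counts say little about small shifts. In NOX against control the median over the 65 genes was -0.0827 on the deposited scale and -0.0781 with median scaling on yeast probe sets, with 55 and 54 of 65 genes below 0 in place of 45. There, 1 gene (MRPL11) was called with a pseudocount of 64, while 225 of all 5498 probe sets were. Leaving out single arrays gave 0 to 15 called genes, medians of -0.0855 to -0.00395 and a large minus small difference of -0.0402 to 0.0222. In AOX against control 0 genes were called under every setting that kept 2 arrays per strain, against 3.58% of all probe sets in the main fit. The median there was -0.00421 with 33 of 65 genes below 0, in place of 40, with median scaling on other-organism probe sets, and when arrays were left out it was -0.0351 to -0.00944 with a subunit difference of -0.0208 to 0.0412. Between AOX and NOX 1 gene was called in the main fit, against 8.38% of all probe sets. The count became 0 on the deposited scale, with median scaling on yeast or other-organism probe sets and with a pseudocount of 1. It was also 0 with only the 2 strains fitted and with the replicate number as a block. The median was 0.0772 on the deposited scale and 0.0722 with median scaling on yeast probe sets. With arrays left out the count was 0 to 11, the median 0.0131 to 0.0542 and the subunit difference -0.0326 to 0.0468.

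Strains share only a replicate number: differences between replicates 2 and 1 correlated at 0.12 between control and NOX, -0.21 between control and AOX and -0.60 between NOX and AOX over probe sets. With it as a block, 0 members were called in each comparison, and the calls over all probe sets went from 204 to 79 in NOX, from 197 to 124 in AOX and from 461 to 237 between AOX and NOX. With only the 2 strains fitted, those counts were 111, 364 and 202. They were 17 and 14 in NOX without control replicates 1 and 2 and 1453 without NOX replicate 2. In AOX they were 62, 52, 89 and 78 without control replicates 1 and 2 and AOX replicates 1 and 2. Between AOX and NOX they were 158 and 171 without AOX replicates 1 and 2 and 1467 without NOX replicate 2. MRPL28, MSK1 and RPS9A, the genes of the members and lists called in the main fit, kept their direction under every setting. Genes called only without NOX replicate 2 could turn. MRPL22 in NOX against control was 0.26 in that fit and -0.15 without NOX replicate 1. Direction was not followed over all probe sets. Averaging probe sets per gene changes nothing for the 65 genes, which had 1 each. The cause of the changed counts was not tested.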
